A study of Mus musculus with 24 samples.

Results

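In mouse plexiform neurofibroma, 10 genes of mast cell biology were followed. They were the receptor gene Kit, its ligand gene Kitl, and the granule proteases Cpa3, Cma1, Mcpt4, Tpsb2 and Tpsab1. The others were the IgE receptor subunits Fcer1a and Ms4a2, and Hdc, which makes histamine. All 10 were picked by symbol from the 24421 genes of the count table and were found there. RNA sequencing covered 24 samples of sciatic nerve labelled plexiform neurofibroma, 6 in each of 4 groups. All groups carried the genotype Nf1 flox/flox PostnCre+, in which Cre is driven by the Postn promoter, so none is wild type or without Cre. Dosing lasted 1 week, with vehicle, with LY3214996 against ERK1/2 (ERKi), with abemaciclib against CDK4/6 (CDKi), or with both (combination). The labels give no age, sex or strain and do not say that samples came from separate animals, so p-values measure the spread between these samples only.

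Mast cells are tissue-resident immune cells that depend on the receptor tyrosine kinase KIT, which binds Kit ligand (stem cell factor) made by neighbouring cells and signals in part through RAS and ERK. They store proteases, heparin and histamine in granules and release them when the high-affinity IgE receptor or other receptors are engaged. Mast cells are a known part of neurofibromas, where Nf1-deficient Schwann cells secrete Kit ligand. Other cell types, including some neurons, also transcribe Kit, and in whole tissue fewer cells of a type and less RNA per cell cannot be told apart.

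Promoter windows were read for genes whose levels moved together. In the RefSeq table for GRCm38.p6, 8 of the 10 genes had an entry, without Tpsb2 and Tpsab1. The letters GATAA, the core bound by GATA factors, were searched on both strands in the 250 bases before each start, and 22.6% of 32817 such windows held them. They were found in Cpa3, Cma1, Mcpt4, Fcer1a and Ms4a2, and not in Kit, Kitl or Hdc. For each gene only the first RefSeq start listed was used. By the GENCODE M21 gene positions the Hdc window lay wholly inside the gene, and those of Kit and Kitl lay partly inside. Absence of the letters therefore holds for these windows only. Of the other motifs searched in the same way, the MITF E-box CATGTG (12.3% of all windows) was found in Fcer1a alone, and TATAA (22.8%) in Kitl, Cpa3, Cma1, Mcpt4 and Fcer1a. A match of letters is a description, not a binding site. The 4 windows shown belong to genes whose levels moved together across libraries, as described below, and capitals mark GATAA or its reverse complement TTATC.
Cpa3, chr3:20242182-20242431, minus strand: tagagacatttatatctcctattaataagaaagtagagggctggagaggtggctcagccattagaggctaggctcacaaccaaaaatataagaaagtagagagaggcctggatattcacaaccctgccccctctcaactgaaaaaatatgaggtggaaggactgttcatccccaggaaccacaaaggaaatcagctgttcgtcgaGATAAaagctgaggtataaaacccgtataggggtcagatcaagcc
Cma1, chr14:55944676-55944925, minus strand: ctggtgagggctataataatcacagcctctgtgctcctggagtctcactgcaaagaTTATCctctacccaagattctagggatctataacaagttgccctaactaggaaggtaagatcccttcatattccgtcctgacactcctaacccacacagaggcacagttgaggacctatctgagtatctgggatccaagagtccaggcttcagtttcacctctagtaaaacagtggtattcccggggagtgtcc
Mcpt4, chr14:56062311-56062560, minus strand: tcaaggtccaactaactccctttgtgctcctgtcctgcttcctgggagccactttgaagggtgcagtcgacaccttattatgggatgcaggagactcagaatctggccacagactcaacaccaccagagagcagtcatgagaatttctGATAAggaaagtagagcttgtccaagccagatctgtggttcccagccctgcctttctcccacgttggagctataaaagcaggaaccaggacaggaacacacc
Ms4a2, chr19:11623720-11623969, minus strand: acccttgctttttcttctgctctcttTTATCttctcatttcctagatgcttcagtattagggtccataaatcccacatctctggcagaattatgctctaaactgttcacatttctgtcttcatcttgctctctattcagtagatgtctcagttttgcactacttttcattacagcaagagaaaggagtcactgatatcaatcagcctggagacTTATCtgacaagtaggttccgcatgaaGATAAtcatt
The motif began 45 bases before the start in Cpa3, 194 in Cma1 and 102 in Mcpt4. Ms4a2 held it at 3 places, 10, 37 and 224 bases before the start. The windows of Kit and Kitl held 70.8% and 69.2% G and C, against 44.4% in Cpa3, 38.8% in Ms4a2 and a median of 52.4% over all windows.

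The 2 tryptase genes lie on chromosome 17 of GRCm38 in opposite directions, Tpsab1 at chr17:25343245-25345562 on the minus strand and Tpsb2 at chr17:25366305-25369098 on the plus strand. Their coding sequences were identical at 629 of 827 aligned bases (76.1%), and no stretch of 50 bases was shared between their transcripts or with another gene. Reads of that length could therefore be assigned to one or the other, which matters for the tryptase result below. The 90 coding bases of each transcript in GENCODE M21 with the most differences show this, with the 41 differing bases in capitals.
Tpsab1, coding bases 342 to 431: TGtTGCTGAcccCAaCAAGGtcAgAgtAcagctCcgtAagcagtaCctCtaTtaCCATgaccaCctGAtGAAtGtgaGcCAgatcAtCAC
Tpsb2, coding bases 240 to 329: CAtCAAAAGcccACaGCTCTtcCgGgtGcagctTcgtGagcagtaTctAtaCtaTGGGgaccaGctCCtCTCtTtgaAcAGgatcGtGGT
Cma1 and Mcpt4, the chymases on chromosome 14, were identical at 67.6% of aligned coding bases. Of their stretches of 50 bases, 5.38% in Cma1 also occurred in Gm48934 and 5.48% in Mcpt4 also occurred in Cma2 or Mcpt9, so a small share of their counts is uncertain. The corresponding share was 2.10% for Ms4a2, with Ms4a4b. No exon of the 10 genes overlapped an exon of another annotated gene.

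Libraries held 5391543 (vehicle 3) to 42321550 (vehicle 2) counts. Of all genes, 15385 passed the filter on low counts and were tested, among them every gene of the set except Fcer1a. Levels are in CPM, a gene's count relative to the library total after TMM scaling. In 6 libraries (vehicle 1 and 5, CDKi 3 and 5, combination 3 and 5) the mean log2 CPM of 10 neuron genes was 5.64 or lower, against 7.28 or higher in the other 18. Liver genes stood out in ERKi 3 and CDKi 1 and 3. Vehicle 3, the shallowest library, gave the highest CPM of all 24 libraries for 6 of the 10 genes.

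Transcripts of the 5 proteases were present in every library, and 7 of the 10 genes were above 0 CPM in all 24. Per kilobase of exon, the median over all libraries was 21.01 CPM per kb for Kitl, 3.81 for Kit, 3.62 for Cma1, 3.35 for Mcpt4, 3.10 for Cpa3, 3.003 for Tpsb2 and 2.95 for Tpsab1. The ranges of Kit and the 5 proteases overlapped widely, so their order is not resolved. Ms4a2 at 0.246, Fcer1a at 0.223 and Hdc at 0.140 CPM per kb were an order of magnitude lower and also overlapped. The proteases present are those of connective tissue mast cells. Mcpt1 and Mcpt2, the mucosal mast cell proteases, summed to at most 0.714 CPM in any library, and the basophil genes Mcpt8, Prss34 and Cd200r3 to at most 1.79 CPM. Of the 6 genes of the melanocyte list, pigment cells that also carry KIT, 1 was tested and the sum was 0.505 to 3.39 CPM.

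No gene of the set differed between treatments beyond the spread between libraries. The test over the 4 groups with edgeR's quasi-likelihood method and Benjamini-Hochberg adjustment called 0 of the 9 tested genes, with the lowest adjusted p of 0.739 for Hdc, and it called 0% of all genes. Each drug alone against vehicle also called 0 of 9, where all tested genes gave 0%, and the combination called 0 of 9, where all genes gave 0.123% (19 genes). In all 7 comparisons 0 of 9 had an unadjusted p below 0.05. The share of all genes under that value was 6.34% for ERKi, 3.12% for CDKi and 11.5% for the combination, 9.54% and 7.69% for the main effects of the ERK and CDK4/6 inhibitors, 3.69% for the interaction and 8.14% over the 4 groups. DESeq2 and limma-voom with a quality weight per library also called 0 of the 9. In none of the 10 genes did the CPM of a treated group stand clear of the vehicle group, which 0.24%, 0.091% and 0.858% of all genes did with ERKi, CDKi and the combination.

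**Figure D1:**
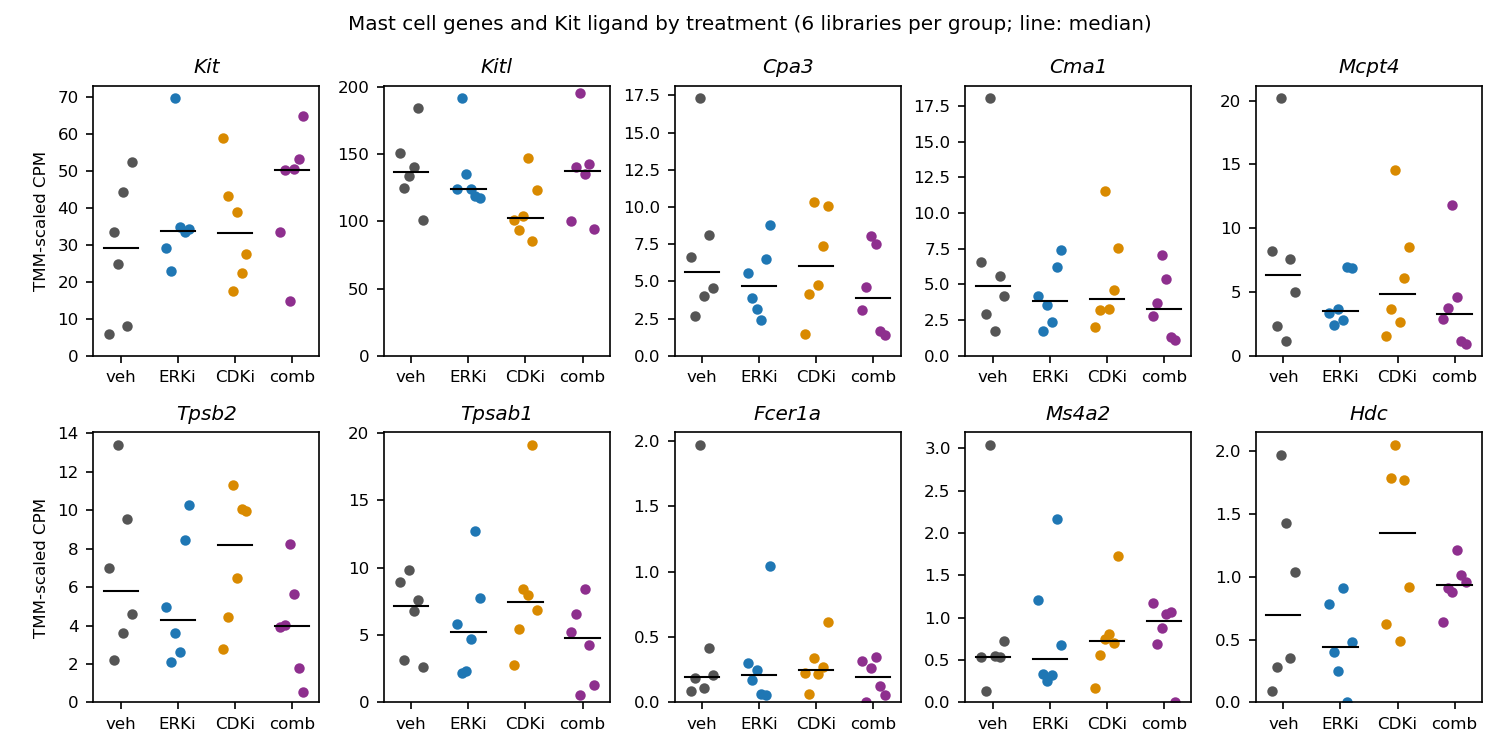
TMM-scaled CPM of each gene (vertical axes from 0, a scale per gene) in the 6 libraries of each group (horizontal axis; veh, vehicle; comb, combination), with the median as a line. The treated groups overlap vehicle for all 10 genes, and 1 vehicle library is the highest of all for Cpa3, Cma1, Mcpt4, Tpsb2, Fcer1a and Ms4a2.

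Kitl encodes the ligand that mast cells need for survival. Its lowest, median and highest levels were 101, 137 and 184 CPM with vehicle, 118, 124 and 192 with ERKi, 85.5, 103 and 147 with CDKi, and 94.3, 138 and 195 with the combination. It was the steadiest of the 10 genes, with a coefficient of variation of 22.98% over all libraries, and 5 of 6 libraries lay under the vehicle mean with CDKi and likewise with ERKi. The log2 fold change for CDKi was −0.35 ± 0.18 (SE), with a 95% interval of −0.71 to 0.01 and an unadjusted p of 0.0580 that did not survive adjustment over all genes (adjusted p = 1.00). For ERKi it was −0.04 ± 0.17 and for the combination −0.05 ± 0.17. The 95% intervals of these were −0.40 to 0.32 and −0.41 to 0.32, the narrowest of the 9 tested genes. The interaction of the inhibitors was 0.34 ± 0.25 (adjusted p = 0.988) and turned to −0.11 without the 6 libraries poor in neuron transcripts. The CDKi estimate was −0.09 without those 6 libraries. It ran from −0.46 to −0.24 with 1 library left out at a time, and it stayed below 0 in all 39 alternatives. Without vehicle 5 the estimates were 0.05 for both ERKi and the combination.

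Kit encodes the receptor. Its lowest, median and highest levels were 5.95, 29.3 and 52.6 CPM with vehicle, 23.1, 33.9 and 69.8 with ERKi, 17.6, 33.3 and 58.9 with CDKi, and 15.0, 50.4 and 64.9 with the combination. Vehicle 1 and 5 lay at the bottom of all 24 libraries, and the vehicle group was the widest by its coefficient of variation (67.1%). The log2 fold changes were 0.40 ± 0.44, 0.30 ± 0.44 and 0.65 ± 0.44 for ERKi, CDKi and the combination, with adjusted p of 0.740, 1.00 and 0.610. Kit was lower where neuron transcripts were few. It was at 5.95, 16.3 and 53.2 CPM (lowest, median, highest) in the 6 libraries poor in neuron transcripts and at 23.1, 37.0 and 69.8 CPM in the other 18, and 5 of the 6 lay under the lowest of the 18. Combination 5, at 53.2 CPM, was the exception. Within the 18 libraries the relation of Kit to the neuron list was r = 0.42 and rho = 0.31 (permutation p = 0.0855 and 0.213), and within the 6 it was r = −0.16 and rho = −0.14 (exact permutation p = 0.744 and 0.803). With 6 relations in this family the adjusted p for r were 0.257 and 0.915. Without those 6 libraries the fold change of Kit was −0.08 for ERKi and 0.34 for the combination. With the neuron list as a covariate in the edgeR fit, the combination estimate of Kit stayed above 0. Its adjusted p was 0.313 there, against 0.610 without the covariate. The part of neuron RNA in the Kit estimates was not otherwise tested.

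The 5 granule proteases were first taken as a sum. Their summed level was 13.4, 29.3 and 78.8 CPM with vehicle (lowest, median, highest), 12.3, 20.1 and 41.1 with ERKi, 10.7, 34.1 and 56.2 with CDKi, and 5.16, 20.3 and 35.7 with the combination. Vehicle 3 held the highest sum and combination 6 the lowest, and all groups overlapped. Cpa3, a carboxypeptidase of granules, was at 2.69, 5.61 and 17.3 CPM with vehicle and 1.38, 3.86 and 8.05 with the combination. Cma1, a chymase, was at 1.76, 4.88 and 18.04 CPM with vehicle and 1.08, 3.27 and 7.09 with the combination. Mcpt4, regarded as the counterpart of human chymase, was at 1.15, 6.30 and 20.2 CPM with vehicle and 0.90, 3.30 and 11.8 with the combination. In each of these genes a single vehicle library stood far above the other 5. Tpsb2, a tryptase, was at 2.23, 5.82 and 13.4 CPM with vehicle and 0.54, 3.98 and 8.22 with the combination. Tpsab1, the other tryptase, was at 2.65, 7.16 and 9.82 CPM with vehicle and 0.52, 4.75 and 8.44 with the combination.

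With the combination the protease estimates were −0.69 ± 0.51 for Cpa3, −0.83 ± 0.55 for Cma1, −0.80 ± 0.64 for Mcpt4, −0.72 ± 0.53 for Tpsb2 and −0.54 ± 0.55 for Tpsab1 on the log2 scale. All 5 were below 0 and none passed (adjusted p 0.591 to 0.786). The median of the 5 was −0.72 beside 0.04 over all genes, of which 43.6% were below 0. These genes are not independent, as their levels moved together across libraries. For ERKi alone the 5 estimates ran from −0.72 to −0.12, all below 0, and for CDKi alone from −0.24 to 0.40, 3 of 5 below 0. With limma-voom, which here also weighted each library by its quality, all 5 ERKi estimates were above 0, from 0.25 (Cma1) to 0.63 (Tpsab1). The direction for ERKi alone thus turned with the method and the weights together, and voom without weights was not run. The main effect of the ERK inhibitor, the 12 libraries given it against the 12 not given it, was −0.51 ± 0.35 for Cpa3, −0.58 ± 0.38 for Cma1, −0.65 ± 0.45 for Mcpt4, −0.60 ± 0.37 for Tpsb2 and −0.53 ± 0.39 for Tpsab1. None passed there either (adjusted p 0.590 to 0.643), and all genes had a median of 0.02 with 46.0% below 0. The 95% intervals for the combination reached from −2.13 to 0.60 over the 5 genes, so a fall of more than 2-fold and no change were both within them.

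**Figure D2:**
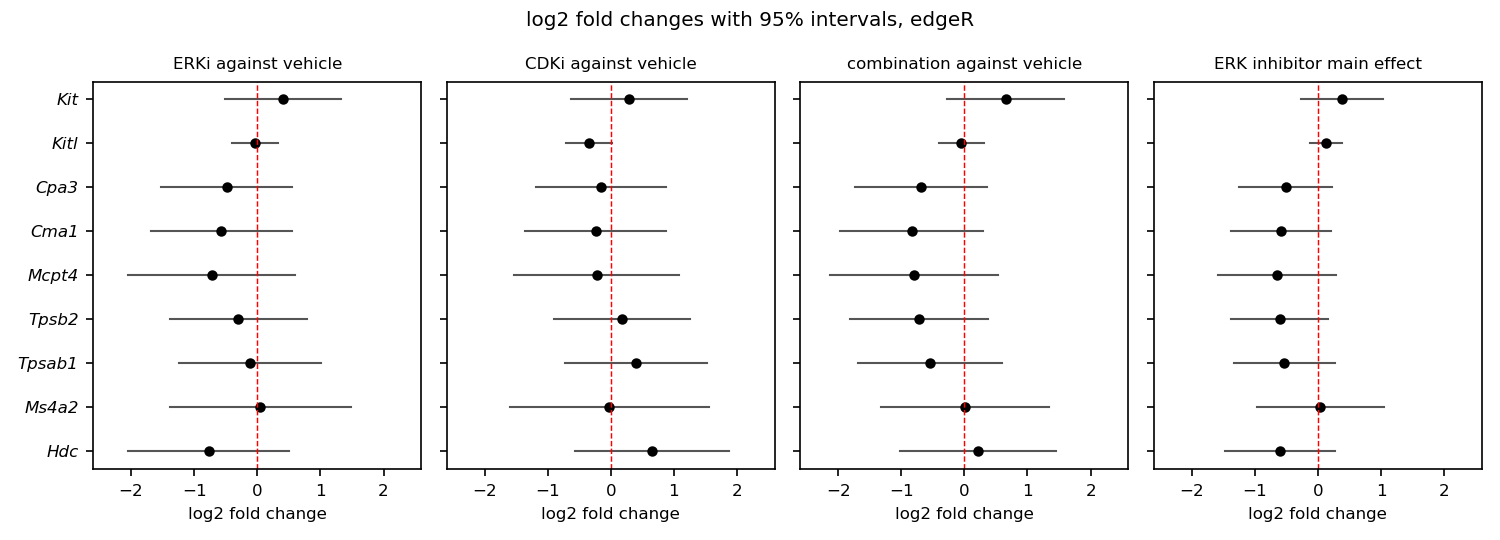
Log2 fold changes (points, horizontal axis) with 95% intervals (lines) of the 9 tested genes from edgeR for each drug arm against vehicle and for the main effect of the ERK inhibitor. Every interval crosses 0 (dashed line); the 5 proteases lie below 0 with ERKi, with the combination and in the main effect.

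A single vehicle library carried much of the combination differences of Cpa3, Cma1, Mcpt4 and Tpsb2. Without vehicle 3 the combination estimates were −0.24 for Cpa3, −0.23 for Cma1, −0.22 for Mcpt4 and −0.42 for Tpsb2, and the ERKi estimate of Cma1 was 0.02. Without combination 3 the combination estimate of Mcpt4 was −1.44. The main effects of the ERK inhibitor stayed below 0 whichever 1 library was left out. Their highest values then were −0.30 for Cpa3, −0.29 for Cma1, −0.37 for Mcpt4, −0.46 for Tpsb2 and −0.33 for Tpsab1. The sample titles are numbers that begin with 4 or with 5, which the labels do not explain, and the groups divide unevenly between them. Among the 12 libraries beginning with 4 the combination estimates were 0.19 for Cpa3, −0.05 for Cma1, 0.23 for Mcpt4, 0.25 for Tpsb2 and −0.54 for Tpsab1. Among the 12 beginning with 5 they were −1.23, −1.46, −1.88, −1.53 and −0.51 in the same order. The estimates of 4 of the 5 proteases were thus lower among titles beginning with 5, and the difference between the series was not tested. Vehicle 3 has a title beginning with 5 and combination 3 a title beginning with 4. The split is therefore not independent of the libraries left out above. The only vehicle libraries with titles beginning with 4 were vehicle 1 and vehicle 2.

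Across libraries, 4 proteases varied together. After the group means were taken out, the log2 CPM of Cpa3, Cma1, Mcpt4 and Tpsb2 gave Pearson's r of 0.88 to 0.97 and Spearman's rho of 0.91 to 0.97 over 24 libraries. The permutation p of each was 1e-05, the smallest that 100000 resamples can give (adjusted over 36 pairs, 6.0e-05). Without the 2 libraries farthest from the median, r was 0.86 to 0.95. Cma1 and Mcpt4 were the closest pair, with a ratio of counts of 0.60 to 1.52 over all libraries. Ms4a2, the beta subunit of the IgE receptor, followed them with r of 0.62 (Mcpt4) to 0.78 (Tpsb2) and rho of 0.56 to 0.67 (adjusted permutation p at most 0.0142 for r and 0.0216 for rho). Without combination 6 and vehicle 3 r was 0.60 with Cpa3, 0.47 with Cma1, 0.41 with Mcpt4 and 0.62 with Tpsb2, so the relation rests in part on those libraries. For Hdc no relation with the 5 proteases was detected, with r between −0.01 and 0.16, or 0.22 to 0.35 without ERKi 5 and vehicle 1. Kit went the other way. Its r was −0.52 with Cpa3 (rho −0.61), −0.58 with Mcpt4 (rho −0.60) and −0.51 with Tpsb2 (rho −0.54), with adjusted permutation p of 0.0419, 0.0364 and 0.0419 for r. Without the 2 farthest libraries these were −0.57, −0.64 and −0.56. With Cma1 r was −0.46 (rho −0.57, adjusted permutation p 0.104 and 0.0221), and with Tpsab1 it was −0.15 (rho −0.27, adjusted permutation p 0.612 and 0.320). These values pool the 6 libraries poor in neuron transcripts with the other 18. Median Kit was 16.3 CPM in the 6 and 37.0 in the 18, and median Cma1 was 6.07 and 3.43 CPM. Relations of Kit with the proteases within each set were not computed. Kitl showed no relation with the 5 proteases (r −0.18 to 0.28, lowest adjusted permutation p 0.428).

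Tpsab1 followed its partner tryptase less closely. Its r was 0.48 with Tpsb2 (rho 0.57, adjusted permutation p 0.101 and 0.0230), and it was 0.78 without combination 3 and combination 6. Combination 3 stood apart from all other libraries. In it, Tpsab1 had 6 counts and Tpsb2 94, so Tpsab1 made up 6.00% of tryptase counts (exact 95% binomial interval 2.23% to 12.6%, which covers counting error only). In the other 23 libraries that share ran from 36.4% to 70.8%, and the interval of combination 3 lay below all of them. In the same library Cpa3, Cma1 and Mcpt4 were each the highest of the combination group. The labels give no strain, so whether this library shares the Tpsab1 allele of the others cannot be told. Without combination 3 the combination estimate of Tpsab1 was −0.32, and the interaction of the inhibitors, −0.83 ± 0.77 with all libraries (adjusted p = 0.988), was −0.61.

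**Figure D3:**
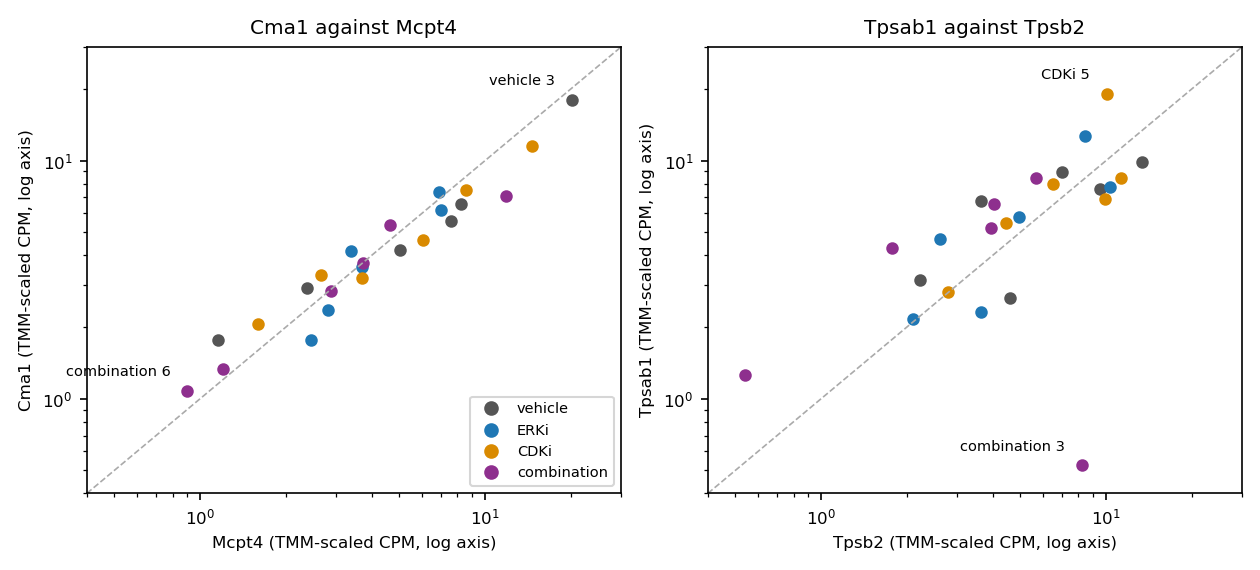
TMM-scaled CPM of Cma1 against Mcpt4 (left) and of Tpsab1 against Tpsb2 (right) on log axes, 1 point per library, coloured by group, with the line of equal CPM dashed. The chymases follow the line in all 24 libraries, whereas combination 3 holds 0.52 CPM of Tpsab1 at 8.22 CPM of Tpsb2.

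The receptor subunits and the histamine enzyme were near the limit of detection. Fcer1a, the IgE-binding alpha subunit, had 0 to 26 counts per library and more than 3 counts in 14 of 24. Its median was 0.20 CPM with vehicle, 0.21 with ERKi, 0.25 with CDKi and 0.19 with the combination. Combination 2 had a count of 0, which allows up to 0.228 CPM. Differences of mean log2 CPM from vehicle were −0.28, −0.16 and −0.62, with exact two-sided permutation p of 0.665, 0.823 and 0.366 (each 0.823 after adjustment over the 3). The smallest p that 6 against 6 allows is 0.0022. Without vehicle 3 the first 2 differences were 0.19 and 0.31. Ms4a2 had medians of 0.54, 0.51, 0.72 and 0.96 CPM in the same order of groups, with estimates of 0.05 ± 0.69, −0.02 ± 0.76 and 0.01 ± 0.64. Combination 6 had no count of it, which allows up to 0.180 CPM.

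Hdc, histidine decarboxylase, had the lowest p over the 4 groups. Its lowest, median and highest levels were 0.09, 0.70 and 1.96 CPM with vehicle, 0 (up to 0.171 allowed), 0.44 and 0.91 with ERKi, 0.49, 1.34 and 2.05 with CDKi, and 0.64, 0.94 and 1.21 with the combination. All groups overlapped. The estimates against vehicle were −0.77 ± 0.61, 0.65 ± 0.59 and 0.21 ± 0.59. The main effect of the CDK4/6 inhibitor was 0.82 ± 0.42, with an unadjusted p of 0.0645 and an adjusted p of 0.670. It was 1.64 ± 0.48 among titles beginning with 4 and 0.97 ± 0.62 among those beginning with 5 (adjusted p 1.00 and 0.916), and 0.40 without the 6 libraries poor in neuron transcripts. CDKi against vehicle differed between the series, at 2.82 ± 0.78 and −0.10 ± 0.76, and that difference was not tested. The only vehicle libraries with titles beginning with 4 were vehicle 1 and vehicle 2. They held 1 and 12 counts of Hdc (0.089 and 0.279 CPM). The CDKi estimate among those titles rests on them as its vehicle, and the main effect rests on them in part.

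Levels of other cell types moved with Cma1, the protease for which this was computed, and with Kit and Kitl. The mean log2 CPM of 10 nerve fibroblast genes had medians of 7.10 with vehicle, 6.86 with ERKi, 7.14 with CDKi and 6.52 with the combination. After group means were taken out, Cma1 followed this list with r = 0.69 and rho = 0.74 over 24 libraries (adjusted permutation p 0.00372 and 0.0024 over 24 relations), and r was 0.73 without the 2 farthest libraries. Kit went against it, with r = −0.62 and rho = −0.68 (adjusted permutation p 0.00372 and 0.0024) and r = −0.55 without those 2. Kit was also negatively related to the endothelial list, with r = −0.54 and rho = −0.48 (adjusted permutation p 0.0309 and 0.101), and to the macrophage list, with r = −0.47 and rho = −0.42 (adjusted permutation p 0.0318 and 0.175). Without the 2 farthest libraries these fell to −0.33 and −0.38. The relations of Kit with these lists also pool the libraries poor in neuron transcripts with the others. The fibroblast list as a covariate, an alternative added after the data were seen, moved the combination estimates of the 5 proteases to between 0.03 and 0.22 and the main effects of the ERK inhibitor to between 0.05 and 0.38. Cma1 also followed the macrophage list, with r = 0.58 and rho = 0.54 (adjusted permutation p 0.0271 and 0.0697), but r was 0.39 without the 2 farthest libraries. Kitl followed the macrophage list with r = 0.58 and rho = 0.66 (adjusted permutation p 0.0318 and 0.0125), and r was 0.66 without the 2 farthest. The part of these cells in the estimates was otherwise not tested.

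**Figure D4:**
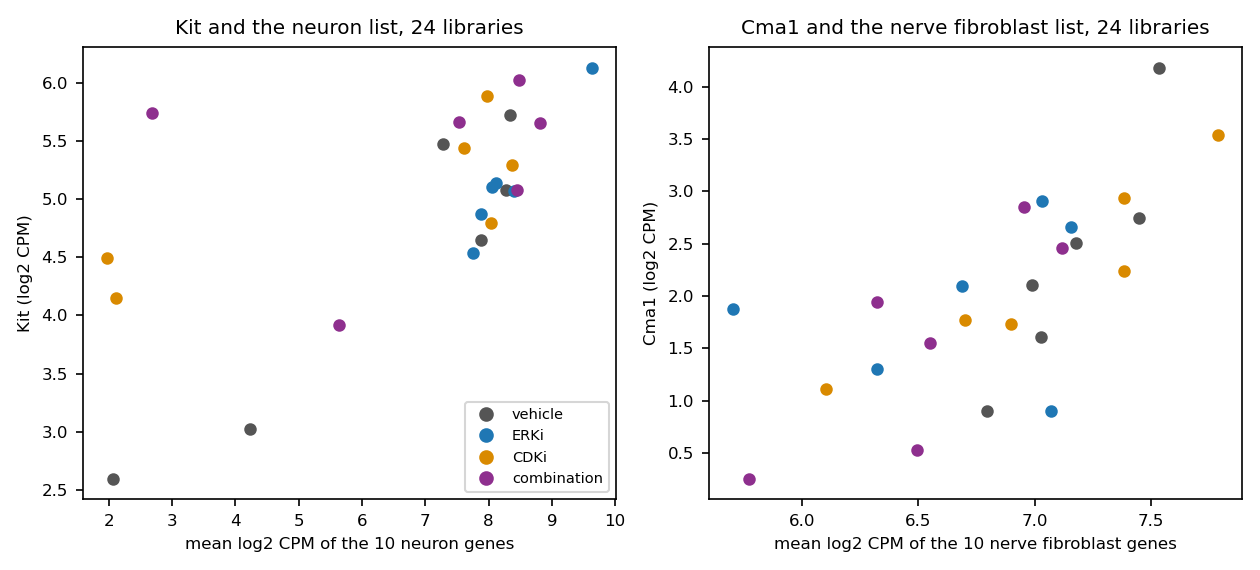
Log2 CPM of Kit against the mean log2 CPM of 10 neuron genes (left) and of Cma1 against that of 10 nerve fibroblast genes (right), 1 point per library, coloured by group. In 6 libraries the neuron mean is at 5.64 or lower, and Cma1 is higher where the fibroblast mean is higher.

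The genes most like the proteases, by r to their mean log2 CPM over 24 libraries among 14346 genes after removing group means, were Il1rl1 (0.91), which encodes the interleukin 33 receptor carried by mast cells, Nrk (0.90), Mrgprx2 (0.88), Lum (0.85) and Cpxm1 (0.85). Lum, a matrix proteoglycan, is also on the fibroblast list. The r of these genes with that list, group means removed, was 0.61 for Il1rl1, 0.74 for Nrk, 0.75 for Mrgprx2, 0.90 for Lum and 0.94 for Cpxm1. Most like Kit were Tmtc1 (0.93), Bnip3 (0.92), Slc25a38 (0.91), Vps33a (0.90) and Peg3 (0.90). Their r with the fibroblast list ran from −0.80 (Vps33a) to −0.55 (Tmtc1). Among those most like Kitl were Plin2 (0.86), Papola (0.85), Top1 (0.82) and Tnfaip8 (0.81). The genes were picked by rank from all genes, and these values carry no test.

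Other genes of mast cell biology gave no call in any of the 7 comparisons. Of 29 further mast cell genes 21 were tested, and with the combination 13 were lower and 8 higher, with a median of −0.09. Alox5, the enzyme that starts leukotriene synthesis, was at 7.05 CPM with vehicle and 4.33 with the combination (medians). Its log2 fold change was −0.68 ± 0.22 (adjusted p = 0.194). Of the 10 genes of the macrophage list 9 were lower with the combination, with a median of −0.29, and 0 passed adjustment. The part of macrophages in the Alox5 value was not tested. Gata2, a transcription factor of mast cells, gave 0.74 ± 0.34 (adjusted p = 0.403). Gata2 is also a gene of endothelial cells, and all 8 genes of the endothelial list had higher estimates with the combination, with a median of 0.77. All 8 of these had an unadjusted p below 0.05 and 0 passed adjustment (lowest adjusted p = 0.170), and their part in the Gata2 value was not tested. All 26 genes of KIT signalling were tested, and with the combination 19 were higher and 7 lower, with a median of 0.10 beside 0.04 over all genes. Bcl2l11, the pro-apoptotic protein BIM that ERK signalling keeps low, was at 22.5 CPM with vehicle and 40.5 with the combination. Its log2 fold change was 0.65 ± 0.20 with the combination (adjusted p = 0.175), but 0.09 ± 0.20 with ERKi and 0.11 ± 0.20 with CDKi. Ptpn11, the phosphatase SHP2 that acts between receptors and RAS, gave 0.28 ± 0.12 (adjusted p = 0.337).

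Genes around Kit ligand and mast cell mediators also stayed short of the threshold. Of 5 proteases listed for shedding of Kit ligand, 4 were lower with the combination. Adam17 was at 94.4 to 179 CPM with vehicle and 61.0 to 102 with the combination (−0.72 ± 0.23, adjusted p = 0.177), and Adam8 gave 0.62 ± 0.33 (adjusted p = 0.491). Of 17 growth and activating signals 13 were tested, 6 higher and 7 lower. Cxcl12, a chemokine that draws KIT-positive cells, was at 43.7 and 70.5 CPM (0.91 ± 0.24, adjusted p = 0.123). It is also made by endothelial and stromal cells, and the part of the higher endothelial list in it was not tested. Csf2rb2, a receptor subunit for interleukin 3 in mice, gave 1.13 ± 0.33 (adjusted p = 0.142). Among 8 receptors for mast cell mediators 6 were tested, 3 higher and 3 lower. F2rl1, the receptor PAR2 that tryptase can cleave, was at 1.92, 3.54 and 6.99 CPM with vehicle (lowest, median, highest) and 0.32, 0.81 and 1.31 with the combination. Those groups did not overlap, which held for 0.858% of all genes, and the log2 fold change was −2.28 ± 0.54 (adjusted p = 0.0839). Hrh2, a histamine receptor, gave −0.93 ± 0.30 (adjusted p = 0.195). Siglecf, of the eosinophil list, gave −1.12 ± 0.33 (adjusted p = 0.149).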

How the data were processed

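The authors deposited raw read counts per gene symbol for 24 libraries, with no pooling or scaling. Per the labels' protocols, libraries were made from total RNA with ribosomal RNA removal; the molecule label reads polyA RNA, and the labels do not settle which holds. STAR, FastQC and DESeq2 are named with build mm10, per the submitters' processing notes. How reads were counted, on which annotation and strand, and with which versions is not given in the sources used here. Counts were analysed with edgeR 4.0.16 in R 4.3.3: filterByExpr (minimum count 10, minimum total 15), TMM scaling, and a robust quasi-likelihood fit with 1 mean per group to all 24 libraries (20 residual degrees of freedom), two-sided, adjusted by Benjamini-Hochberg over 15385 genes at 0.05. The filter kept at least 98.6% of each library's counts. The biological coefficient of variation was 35.9%. A count of 3 was taken as the floor, 0.0697 to 0.536 CPM, and covers counting error only. Log2 CPM used a prior count of 2. The 7 comparisons were the 4 groups together, each arm against vehicle, the 2 main effects and the interaction. Fcer1a, which did not pass the filter, had an exact permutation test. Samples were grouped by the treatment label, and their numbers only name them. Chi-square per degree of freedom was at least 19.95 in each of the 60 pairs of libraries within a group, far above sampling noise. The code was tested on simulated data. Gene positions came from GENCODE M21 (GRCm38). The genes named are the 10 members, the 2 of each list with the smallest p over the 4 groups, and the 5 most like the proteases, Kit and Kitl, of which 1 for Kitl is not reported here; F2rl1's separation was described after its values were seen. The members and lists were chosen with earlier results of these data known. DESeq2 1.42.0 and limma 3.58.1 (voom with a quality weight per library), other scalings, filters and covariates, and left-out libraries served as alternatives.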

Additional observations from a re-analysis of the deposited data

Results flagged for a closer look

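In 10 of the 40 groups checked (10 genes in 4 groups of 6), the highest library stood apart from the other 5, in that its gap to the nearest, divided by the range of the group, was above Dixon's 95% critical value. Chance flags about 1 in 20 groups where values have a normal distribution. The check used CPM without a log, for which that rate was not established. Genes that move together also share their flags. Vehicle 3, the shallowest library, was such a library for Cpa3 at 17.3 CPM, Cma1 at 18.04 CPM, Mcpt4 at 20.2 CPM, Fcer1a at 1.96 CPM and Ms4a2 at 3.04 CPM. Kit stood apart in ERKi 3 at 69.8 CPM, a library that also held liver transcripts. Kitl stood apart in ERKi 2 at 192 CPM. Mcpt4 stood apart in combination 3 at 11.8 CPM, Tpsab1 in CDKi 5 at 19.1 CPM and Fcer1a in ERKi 6 at 1.04 CPM.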

How the results depend on the processing

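The count of genes called was 0 of the tested genes in all 7 comparisons under every one of the 38 or 39 alternatives run for each, and the lowest adjusted p over them was 0.313, for the combination with neuron genes as a covariate. Over all genes the count of calls for ERKi, CDKi and the combination was 2, 30 and 262 with DESeq2 and 0, 0 and 30 with limma-voom, against 0, 0 and 19 with edgeR. No estimate of the 9 genes was called, so a change of sign is a change of an unresolved value; of 2077 such values over the 6 comparisons with a fold change 211 changed sign, 35 of them in the main effect of the CDK4/6 inhibitor and 61 in the interaction, and the cause was not tested. The values that follow are those of estimates given above. With upper quartile scaling the estimate was Ms4a2 −0.0125 for the combination. With DESeq2 the estimate was Ms4a2 −0.0387 for ERKi and Ms4a2 −0.084 for the combination. There, too, the estimate was Ms4a2 −0.00651 for the ERK inhibitor main effect. With limma-voom the estimate was Kitl 0.00949, Cpa3 0.42, Cma1 0.25, Mcpt4 0.37, Tpsb2 0.57 and Tpsab1 0.63 for ERKi and Cpa3 0.28, Cma1 0.21, Mcpt4 0.31 and Ms4a2 0.89 for CDKi. There, too, the estimate was Ms4a2 −0.0228 for the combination. With no count filter the estimate was Ms4a2 −0.0242 for the combination. With a filter of CPM above 1 in 6 libraries the estimate was Ms4a2 0.00612 for CDKi. With a term for the title series the estimate was Ms4a2 0.15 for CDKi. With neuron genes as a covariate the estimate was Kitl 0.014 and Tpsab1 0.18 for ERKi and Ms4a2 0.034 for CDKi. With the adipocyte list as a covariate the estimate was Cpa3 0.0673, Cma1 0.19 and Ms4a2 0.43 for CDKi. With the skeletal muscle list as a covariate the estimate was Kitl 0.0218 for ERKi and Tpsb2 −0.0207 for CDKi. There, too, the estimate was Kitl 0.0274 and Ms4a2 −0.0249 for the combination. Without the 6 neuron-poor libraries the estimate was Kit −0.076, Kitl 0.11, Tpsab1 0.13 and Ms4a2 −0.14 for ERKi and Hdc −0.19 for CDKi. There, too, the estimate was Ms4a2 −0.33 and Hdc −0.23 for the combination and Ms4a2 −0.17 for the ERK inhibitor main effect. There, too, the estimate was Kitl −0.11 for the interaction. Without the 3 liver-positive libraries the estimate was Tpsab1 0.0543 for ERKi and Ms4a2 0.28 for CDKi. Without the deepest and shallowest libraries the estimate was Cpa3 0.12, Cma1 0.25, Mcpt4 0.17 and Ms4a2 0.42 for CDKi. With the nerve fibroblast list as a covariate the estimate was Kit −0.0591, Kitl 0.0312, Cpa3 0.35, Cma1 0.33, Mcpt4 0.42, Tpsb2 0.45 and Tpsab1 0.40 for ERKi and Ms4a2 0.17 for CDKi. There, too, the estimate was Kitl 0.0356, Cpa3 0.19, Cma1 0.0356, Mcpt4 0.22, Tpsb2 0.0336 and Tpsab1 0.18 for the combination and Kit −0.055, Cpa3 0.30, Cma1 0.23, Mcpt4 0.38, Tpsb2 0.0824 and Tpsab1 0.0503 for the ERK inhibitor main effect. Leaving out 1 library at a time moved these log2 values across 0. For ERKi it ran from −0.18 to 0.0522 for Kitl, −0.82 to 0.0214 for Cma1, −0.53 to 0.0528 for Tpsab1, −0.54 to 0.77 for Ms4a2 and −0.63 to 0.19 for Fcer1a. For CDKi it ran from −0.33 to 0.31 for Cpa3, −0.59 to 0.38 for Cma1, −0.66 to 0.37 for Mcpt4, −0.000218 to 0.59 for Tpsab1, −0.42 to 0.72 for Ms4a2 and −0.36 to 0.31 for Fcer1a. For the combination it ran from −0.18 to 0.0543 for Kitl, −0.28 to 0.73 for Ms4a2 and −0.0189 to 0.53 for Hdc. In the ERK inhibitor main effect it ran from −0.26 to 0.39 for Ms4a2. In the CDK4/6 inhibitor main effect, whose protease estimates are not given above, it also crossed 0 for the 5 proteases (−0.46 to 0.19 over them) and Ms4a2, and in the interaction for Kit, Cpa3, Cma1, Mcpt4 and Ms4a2 (−0.75 to 0.59 over them). No paired analysis was possible because the labels give no replicate numbers that groups share. Counts of Fcer1a, Ms4a2 and Hdc are too low to resolve moderate changes, and the depth of vehicle 3 limits its values most.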
